A study of Mus musculus with 6 samples.

Results

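The region around Paqr9, Pcolce2 and Trpc1 on mouse chromosome 9 (mm10, 95450000 to 95800000) held 53 of the 34518 rows of a table of noncoding RNA from the left atrium. Its members were chosen by position, as all rows overlapping the region, and the region itself was chosen by earlier results of the same comparison, as a run of rows called lower. Within it a block from 95544215 to 95699430 (155.2 kb) held 46 rows. The flank before the block (94.2 kb) held 5 rows and the flank after it (100.6 kb) held 2.

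Left atria were taken from adult mice of the outbred CD1 stock, 3 libraries from mice that overexpressed FOG2 (FOG2_OE) and 3 from wild type mice (WT). FOG2, encoded by Zfpm2, is a cofactor that binds GATA transcription factors. The hearts of both groups came from animals kept without doxycycline for 1 week, and the labels call the animals DTG and NTG. The promoter that drove FOG2, the cells in which it acted and whether animals were pooled are not given in the sources used here. Total RNA was depleted of ribosomal and of polyadenylated RNA, so that transcripts lacking a poly(A) tail were read. Depth, as effective library size solved from the table, was 72464183 to 84907173 reads in FOG2_OE and 71180401 to 82251201 in WT. The row over the Zfpm2 gene body, MSTRG.29831, stood at 0.484 CPM in WT and 416 CPM in FOG2_OE (CPM, the usual scaling of reads to library depth). None of 26 marker genes of atrial, ventricular and other heart cell types was listed under its own symbol, so that the tissue label was not checked on markers.

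Paqr9 encodes a membrane protein of the progestin and adipoQ receptor family. Pcolce2 encodes a secreted glycoprotein that enhances the removal of the C-terminal propeptide from procollagen, a step that precedes collagen fibril assembly in the heart's matrix. Trpc1 encodes a subunit of canonical TRP cation channels, which have been linked to calcium entry after receptor activation or store depletion. Transcripts without a poly(A) tail are also made outside such genes: at enhancers, in the antisense direction from promoters, and past the ends of genes where the polymerase has not yet stopped. The table lists assembled pieces of such RNA under assembler identifiers, and none of the 53 rows carried a gene symbol.

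No row overlapped Paqr9 (95559657 to 95568023, plus strand), Pcolce2 (95637601 to 95698096, plus strand) or Trpc1 (95705082 to 95750375, minus strand), neither in exons nor in introns. The mRNAs of these genes were therefore not analysed here, and the values below describe the RNA between them. Of the 53 rows, 43 lay outside any gene of GENCODE M21. Introns of annotated long noncoding RNAs held 9, listed on the opposite strand to the host: 1 in Gm32281, just before Paqr9, and 8 in Gm16126, which overlaps the start of Pcolce2. The remaining row, MSTRG.86978 in the flank before the block, overlapped an exon of the long noncoding RNA Gm28424. The name "noncoding domain" thus fits the annotation, but the block is not filled evenly. Between its last row before Pcolce2 and its single row past Pcolce2 lay 65.6 kb without a row, and Trpc1 lay outside it.

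The sequences that frame the run of rows are shown to place it. The first is the Pcolce2 promoter, the 250 bases before the gene's RefSeq start (GRCm38.p6, chr9:95637378-95637627, plus strand), which closes the run of rows that starts at Paqr9. The second is that of Trpc1 (RefSeq, GRCm38.p6, chr9:95750349-95750598, minus strand), the promoter past the far end of the block. The RefSeq starts differ from the GENCODE M21 limits given above, so these windows reach slightly into the genes as placed there. The third is the start of the Gm28424 exon under MSTRG.86978 (GENCODE M21, chr9:95512151-95512270, plus strand), the most abundant row of the flanks. Capitals mark CG dinucleotides, 10, 17 and 7 in these windows.
Pcolce2 promoter: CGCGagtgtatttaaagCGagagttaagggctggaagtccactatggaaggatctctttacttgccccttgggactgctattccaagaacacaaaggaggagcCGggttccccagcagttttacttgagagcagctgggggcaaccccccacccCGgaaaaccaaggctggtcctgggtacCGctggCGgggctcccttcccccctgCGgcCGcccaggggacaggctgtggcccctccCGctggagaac
Trpc1 promoter: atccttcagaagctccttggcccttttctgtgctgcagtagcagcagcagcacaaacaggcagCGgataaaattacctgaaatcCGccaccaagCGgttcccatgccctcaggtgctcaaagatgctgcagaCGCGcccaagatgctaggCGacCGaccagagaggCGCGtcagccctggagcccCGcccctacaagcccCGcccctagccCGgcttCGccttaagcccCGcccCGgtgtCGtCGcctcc
Gm28424 exon start: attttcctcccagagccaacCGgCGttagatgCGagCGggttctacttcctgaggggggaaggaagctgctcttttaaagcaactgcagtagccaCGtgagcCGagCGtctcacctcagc

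Since FOG2 acts through GATA factors and the series title names TBX5, the promoter windows of Pcolce2 and Trpc1 (250 bases before to 50 after the start) were searched on both strands. The Paqr9 window was not analysed here. The GATA words were AGATAA or AGATAG, and TGATAA or TGATAG. The T-box words were AGGTGTGA or AGGTGTTA. Neither the Pcolce2 nor the Trpc1 window held a match to any of them, while 29.8% of 32851 promoter windows held a GATA word and 1.69% a T-box word.

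RNA across the block was lower with FOG2 overexpression. Summed over its 46 rows, the fitted level was 12.4 CPM in WT and 2.41 CPM in FOG2_OE, 5.16-fold lower, a log2 ratio of -2.37 (implied SE 0.11 if rows are taken as independent, which was not tested). An implied standard error (SE) is one solved from the likelihood ratio that the authors gave for each row, since the table holds no replicate values. All 46 rows had a log2 fold change below 0 in the authors' deposited table, from -4.17 to -1.003 with a median of -2.50, against a median of -0.21 over all rows. Lower calls numbered 30 of the 46 (adjusted p under 0.05, likelihood ratio test with Benjamini-Hochberg adjustment), and higher calls 0. Among all rows 4.65% were called lower and 1.16% higher. Because calls of this comparison fixed the block, these counts describe it and test nothing. In a bulk sample, fewer cells of a type and less RNA per cell cannot be told apart.

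The flanks stood nearer to the rest of the table. Their 7 rows summed to 1.56 CPM in WT and 1.07 CPM in FOG2_OE, 1.45-fold lower, and the authors' deposited table put their median log2 fold change at -0.35. None of the 7 was called, and 1 had an unadjusted p under 0.05 (lower). The flank before the block accounted for most of this level (1.33 CPM in WT, 0.992 CPM in FOG2_OE). It consisted of 4 short rows past the end of U2surp, a gene of the splicing machinery, and of MSTRG.86978. Its median log2 fold change of -0.25 was close to that of all rows. The 2 rows of the flank after the block summed to 0.230 CPM in WT and 0.0822 CPM in FOG2_OE. In the authors' deposited table their log2 fold changes (-1.30 and -2.04) lay inside the range of the block. Their median of -1.67 was nearer to that of the block (-2.50) than to that of all rows (-0.21). The difference between block and flanks was not tested, since the limits were drawn along the calls.

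**Figure D1:**
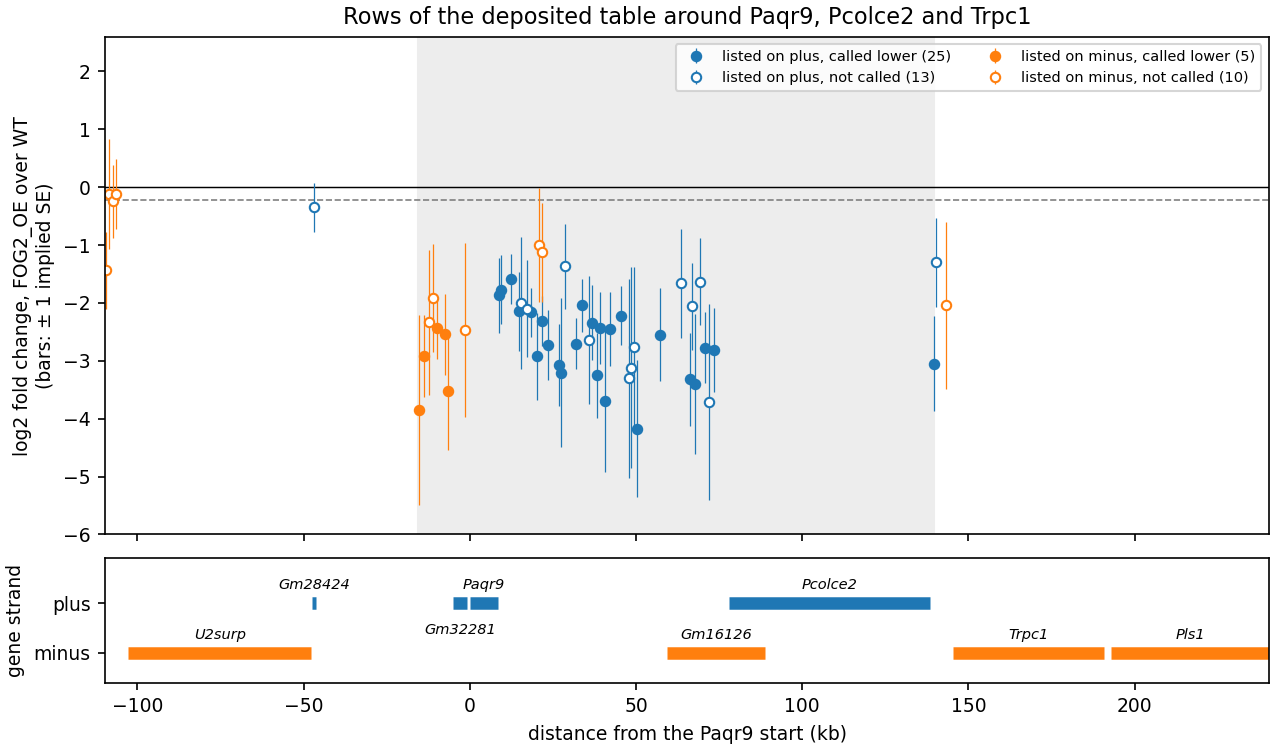
Log2 fold change (FOG2_OE over WT, with ± 1 implied standard error) of the 53 rows by distance from the Paqr9 start in kb, with genes by strand below. Filled points were called lower, the grey area is the block, and the dashed line is the median of all rows at -0.21. All 46 block rows lie between -4.17 and -1.003, and no row lies over Paqr9, Pcolce2 or Trpc1.

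Rows just inside and outside the limits show how the block ends. At its start, MSTRG.86917 (95544215 to 95544388) had 0.0824 CPM in WT and 0.00422 CPM in FOG2_OE, the latter from 1.0 fitted reads over the 3 libraries. The ratio of 19.5 therefore has a counting interval of 3.09 to 807 (95%, exact binomial, counting error only). The next row outward, MSTRG.86978 (95512137 to 95513425), had 0.821 and 0.644 CPM, 1.28-fold lower (authors' deposited table: adjusted p = 0.745). At the other end, MSTRG.86972 (95699184 to 95699430), 1.09 kb past the end of Pcolce2, went from 0.187 to 0.0211 CPM (authors' deposited table: adjusted p = 0.00129, log2 fold change -3.05 with an implied SE of 0.82). MSTRG.86975, 273 bases beyond the block, went from 0.174 to 0.0697 CPM and was not called (authors' deposited table: adjusted p = 0.379, log2 fold change -1.30 with an implied SE of 0.77). At the start, the authors' deposited table gave log2 fold changes of -3.85 for MSTRG.86917 (implied SE 1.64) and -0.35 for MSTRG.86978 (implied SE 0.43). The implied 95% intervals overlap for this pair and for the neighbours past Pcolce2. Such overlap does not decide whether 2 changes differ, and that was not tested. Each limit separates a called from an uncalled row. The wide interval at the start comes from the few reads of MSTRG.86917. The next row inward, MSTRG.86919, had a log2 fold change of -2.91 with an implied SE of 0.71 (authors' deposited table: adjusted p = 0.000945).

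Most of the RNA of the block came from the 69.6 kb between the end of Paqr9 and the start of Pcolce2. This stretch held 37 rows, of which 24 were called lower, and 87.2% of the WT level of the block. Its rows began 0.310 kb past the end of Paqr9 and stopped 4.04 kb short of Pcolce2. They covered 29.3% of the stretch, with a median gap of 0.718 kb and a largest gap of 6.64 kb between neighbours. Of the 37, 35 were listed on the strand of Paqr9 and Pcolce2. The other 2, MSTRG.86941 and MSTRG.86943, lay over MSTRG.86942 on the opposite strand. Strand is not recorded by this kind of library kit. Reads of overlapping rows thus cannot be told apart, and the listed strands are not taken as measured. In sum the stretch stood at 10.8 CPM in WT and at 2.17 CPM in FOG2_OE, 4.99-fold lower.

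The abundant rows of this stretch give the most precise values. MSTRG.86948 (95590588 to 95592802, 30.9 kb from the Paqr9 start) was the most abundant row of the block and had its smallest adjusted p. Its fitted values were 94.1, 104 and 109 reads in WT replicates 1 to 3 and 16.1, 14.6 and 17.2 reads in FOG2_OE replicates 1 to 3. Within a group such values differ by library size only, so that the FOG2_OE and WT values are apart by construction and carry no spread between animals. On the CPM scale the row fell from 1.32 to 0.202 (authors' deposited table: adjusted p = 3.51e-07, log2 fold change -2.70 with an implied SE of 0.44).

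MSTRG.86942 (95580576 to 95582156) was fitted at 65.9, 72.6 and 76.1 reads in WT and 14.8, 13.4 and 15.7 in FOG2_OE, or 0.926 and 0.185 CPM (authors' deposited table: log2 fold change -2.31, adjusted p = 7.84e-06). MSTRG.86944 (95577369 to 95578966) was fitted at 55.8, 61.5 and 64.5 reads in WT and 13.8, 12.6 and 14.8 in FOG2_OE, or 0.785 and 0.174 CPM (authors' deposited table: log2 fold change -2.16, adjusted p = 3.91e-05). MSTRG.86935 (95570955 to 95573208), the second most abundant row of the block and the longest at 2254 bases, had the smallest fold of the 5 most abundant rows. It went from 1.11 to 0.370 CPM, 3.005-fold lower (authors' deposited table: adjusted p = 0.00894, log2 fold change -1.58 with an implied SE of 0.43).

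The other rows with the smallest adjusted p were scarcer than MSTRG.86948. MSTRG.86954 (95597549 to 95598157) went from 0.292 to 0.0293 CPM and MSTRG.86947 (95593084 to 95593857) from 0.559 to 0.135 CPM, and the authors' deposited table gave them adjusted p of 7.75e-05 and 0.000464. MSTRG.86939 and MSTRG.86940, 14.7 and 18.2 kb past the end of Paqr9, were 6.81-fold and 8.79-fold lower in FOG2_OE. MSTRG.86957, 36.8 kb past it, was 4.73-fold lower. MSTRG.86960 had the most negative log2 fold change of the block, -4.17 in the authors' deposited table, but rested on 2.01 fitted reads in FOG2_OE against 41.8 in WT, and its ratio of 21.2 has a counting interval of 5.59 to 183. MSTRG.86965 and MSTRG.86971, 11.5 and 6.76 kb before the start of Pcolce2 and listed opposite to Gm16126, were 10.7-fold and 6.96-fold lower. Together the 8 rows listed opposite to Gm16126 went from 1.67 to 0.274 CPM. Of these, 4 were called lower, beside 4.65% of all rows. With strand not measured, these rows cannot be told apart from RNA of Gm16126 itself.

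**Figure D2:**
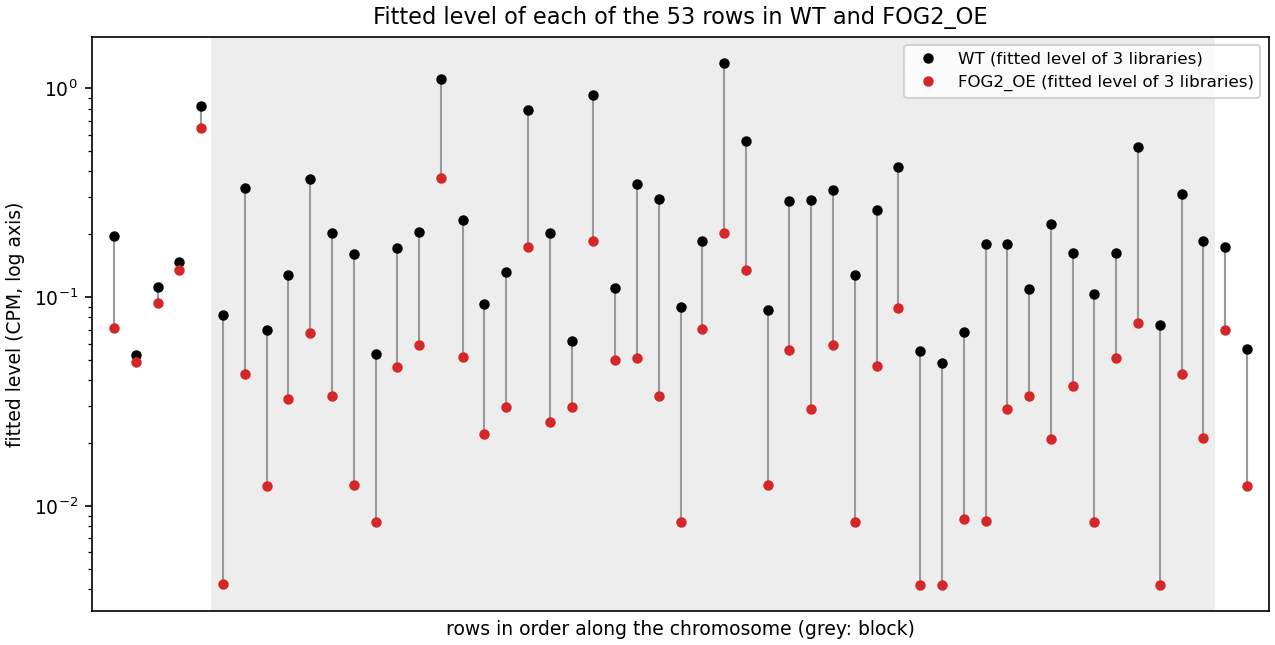
Fitted level in CPM (log axis) of each of the 53 rows in order along the chromosome, WT in black and FOG2_OE in red, each the fitted level of 3 libraries; grey marks the block. The block rows range from 0.0484 to 1.32 CPM in WT and from 0.00418 to 0.370 CPM in FOG2_OE, and the WT point is the upper one in each row.

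Before Paqr9 lay a second, smaller run of 8 rows, all listed on the strand opposite to Paqr9. The one nearest to Paqr9, MSTRG.86924, lay in the intron of Gm32281. Together they held 1.40 CPM in WT against 0.214 CPM in FOG2_OE, 6.55-fold lower, and 5 were called lower. MSTRG.86921 (95549550 to 95550204) was the most abundant, at 0.370 CPM in WT against 0.0671 CPM in FOG2_OE (authors' deposited table: adjusted p = 0.000191, log2 fold change -2.43 with an implied SE of 0.54). FOG2_OE held at most 3 fitted reads over its 3 libraries in 4 of the 8, so that the folds of those are imprecise.

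Along the run past Paqr9 the ratio between the groups was smallest next to the gene. In the first 10 kb past its end 6 rows summed to 1.95 CPM in WT and 0.579 CPM in FOG2_OE, 3.37-fold lower. MSTRG.86935 alone held 1.11 CPM of that WT level. The 31 rows beyond summed to 8.89 and 1.59 CPM, 5.58-fold lower, and the steps of 10 kb ranged from 5.06-fold to 9.41-fold. Over the 37 rows the Spearman correlation of distance with the log2 fold change was -0.48, given as a description since the rows share libraries and neighbours. The implied 95% interval of each of the 46 block rows held the log2 ratio of the block's sums, -2.37. No row thus stood clearly apart from 1 common fold, and differences between steps were not tested. The step of 9.41-fold, from 40 to 50 kb, held 4 rows and only 0.0506 CPM in FOG2_OE. The WT level per length showed no such trend (Spearman correlation with distance -0.10). It was 0.514 CPM per kb of row in the first 10 kb and 0.462 CPM per kb in the last step before Pcolce2.

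**Figure D3:**
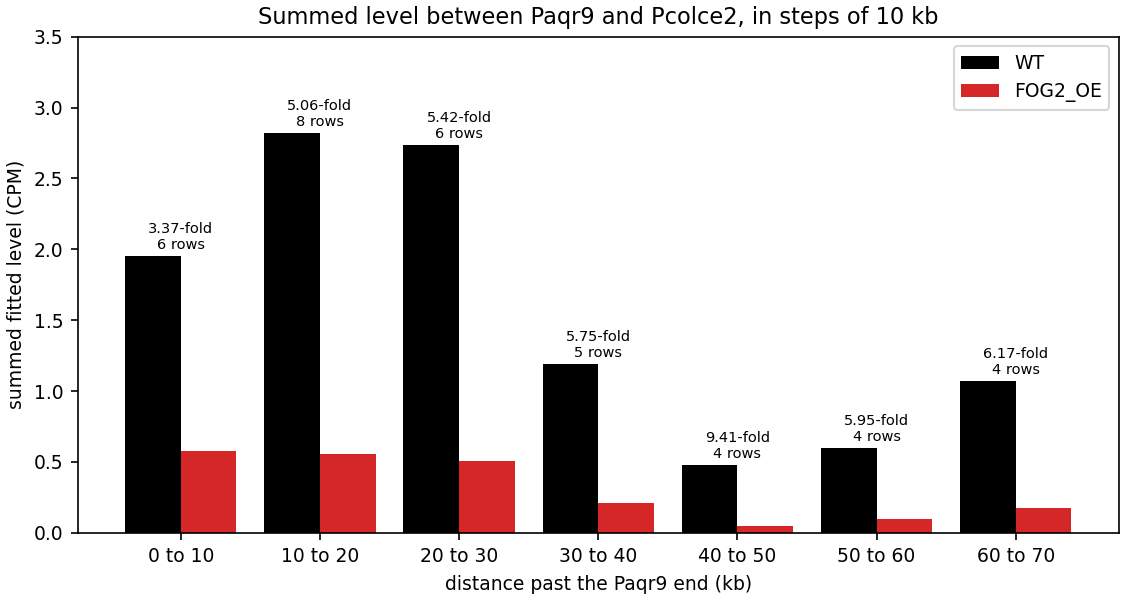
Summed fitted level in CPM of the 37 rows between Paqr9 and Pcolce2, in steps of 10 kb past the end of Paqr9 (the last step ends at the Pcolce2 start), WT in black and FOG2_OE in red, with the fold lower and the number of rows above each pair. The first step is 3.37-fold lower and the others are 5.06-fold to 9.41-fold lower.

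The WT level per length of the 46 block rows lay between 0.344 and 0.873 CPM per kb with a median of 0.511, against a median of 0.420 over all rows. Their lengths ran from 101 to 2254 bases with a median of 397, against 238 over all rows. Length and WT level therefore went together in the block (Spearman correlation 0.96 over 46 rows), so that the abundance of a row mostly gives its length. The summed WT level per length of the block, 0.526 CPM per kb of row, was near that of the flank before it, 0.521. The block was chosen by lower calls, which need enough reads in WT. Its WT level and length beside all rows may thus partly reflect that choice. The log2 fold changes, on which the calls rest as well, had an SD between block rows of 0.72 and a median implied standard error of 0.76. Single rows thus say little on whether their folds differ. The implied biological coefficient of variation had a median of 45.3% in the block and 49.4% over all rows.

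Called rows of the block were mostly more abundant and longer than uncalled ones, and their fold was larger, but the ranges overlapped. This largely follows from the call itself, since the likelihood ratio grows with reads and with fold, and length went with WT level. The values below therefore describe which rows could be called. The 30 called rows had a median WT level of 0.275 CPM (0.0824 to 1.32), a median length of 489 bases and a median log2 fold change of -2.72. The 16 uncalled rows had 0.0899 CPM (0.0484 to 0.185) and 153.5 bases, a median log2 fold change of -2.08 and, in the authors' deposited table, adjusted p of 0.0529 to 0.647. All 18 block rows with a mean fitted value of at least 10 reads were called. At most 3 fitted reads stood behind the FOG2_OE level in 13 of the 46 rows, 6 of them called.

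The calls depend on how the authors' statistic is read. Read against an F distribution (10 residual degrees of freedom), which allows for error in the dispersion, 4 of the 46 rows passed (MSTRG.86948, MSTRG.86942, MSTRG.86944 and MSTRG.86954), where 1.07% of all rows were called lower. Taking 4 residual degrees of freedom, 0 passed, as over the whole table (0% called), while 32 of the 46 had an unadjusted p under 0.05. At an adjusted p under 0.01 the block had 23 calls, where 2.69% of all rows were called lower. With the median ratio of all rows centred at 1 it had 26, where 3.47% of all rows were called lower and 1.62% higher. Among rows with a mean fitted value of at least 10, 6.91% of the table was called lower.

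Other clusters of lower rows in the table gave the nearest comparison. Joining rows called lower over gaps of at most 100 kb gave 23 clusters with at least 10 called rows, and the block ranked 7 by called rows and 12 by the log2 ratio of sums (from the most negative). The 3 clusters with the nearest ratio lay on other chromosomes. A cluster of 29 rows whose nearest coding start is that of Pkdcc (chromosome 17, 83025498 to 83140207) went from 4.36 to 0.871 CPM, 5.01-fold lower. A cluster of 52 rows near Mllt3 (chromosome 4, 87534263 to 87769804) went from 91.2 to 16.6 CPM, 5.51-fold lower. A cluster of 17 rows near Vldlr (chromosome 19, 27060389 to 27167293) went from 102 to 21.3 CPM, 4.80-fold lower. These 3 were picked for a like ratio, and differ in level: the block lay between the Pkdcc cluster and the other two in WT. All were chosen by their calls, and no difference between them was tested.

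**Figure D4:**
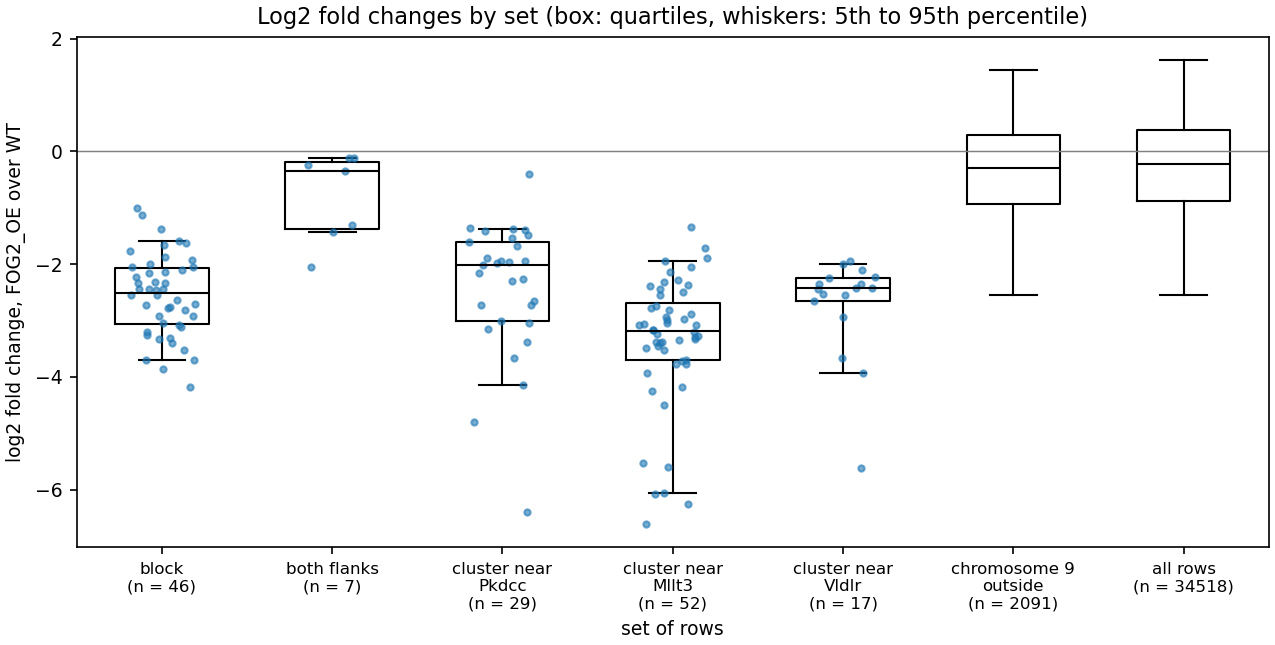
Log2 fold changes (FOG2_OE over WT) by set of rows; boxes show quartiles, whiskers the 5th to 95th percentile, and points the single rows of the smaller sets. The medians of the block (-2.50) and of the clusters near Pkdcc, Mllt3 and Vldlr, all chosen by calls, lie below those of the other sets. These are both flanks together (-0.35), the rest of chromosome 9 (-0.29) and all rows (-0.21). The 2 rows of the flank after the block alone have a median of -1.67.

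Genes related to the 3 by function were examined by lists, with a row linked to a coding gene that it overlapped or, outside genes, to the nearest start within 100 kb. By this rule 28 rows of the region were linked to Paqr9, 17 to Pcolce2, 3 to Trpc1, 4 to Chst2 and 1 to U2surp. Of 11 receptors of the PAQR family, 4 had rows, 49 in all, with 19 called lower and 0 higher. All 19 belonged to Paqr9, whose rows the region was chosen for, beside 4.65% called lower over all rows. Without the region, 21 rows of Adipor1, which encodes an adiponectin receptor, Paqr3 and Paqr5 remained, with 0 called, and the authors' deposited table gave them a median log2 fold change of -0.19.

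Of 28 genes of procollagen processing and collagen cross-linking, 13 had rows, 63 in all, with 12 called lower and 0 higher. Pcolce2 gave 10 of these calls. Without the region 2 of 46 rows (4.35%) were called lower, near the share in the whole table, and the authors' deposited table gave a median log2 fold change of 0.44. The calls were 1 row each of Plod1 and Plod2, which encode lysyl hydroxylases. MSTRG.62072 in Plod1 (chromosome 4, 147913632 to 147913992) went from 0.234 to 0.0501 CPM (authors' deposited table: adjusted p = 0.00873, log2 fold change -2.19 with an implied SE of 0.63). MSTRG.86821, 68.9 kb from the start of Plod2, stood at 0.0668 CPM in WT and was listed at 0 in FOG2_OE (authors' deposited table: adjusted p = 0.0194). The 14 rows linked to Col3a1, a fibrillar collagen gene, summed to 8.29 CPM in WT and 8.70 CPM in FOG2_OE, with 0 called. The most abundant of them held 6.89 CPM of that WT level. Their median log2 fold change by the authors' deposited table was 0.82, with a range of -0.18 to 3.01.

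Of 28 genes of canonical TRP channels and store-operated calcium entry, 13 had rows, 42 in all. The only call was MSTRG.86972 past the end of Pcolce2, linked to Trpc1 by its start 51.0 kb away. The 39 rows outside the region, among them 8 of the calcium sensor gene Stim2, 2 of the calcium release channel gene Itpr1 and 3 of the caveolin gene Cav1, had 0 calls, and their median log2 fold change by the authors' deposited table was -0.33. No other TRPC gene had a row. Outside the region the lists thus held 0 of 21, 2 of 46 and 0 of 39 rows called lower, counts too small to be set apart from the 4.65% of all rows.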

How the data were processed

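From left atria, 3 FOG2_OE and 3 WT libraries were prepared with the TruSeq RNA v2 kit after removal of ribosomal and polyadenylated RNA, per the labels' protocols. Tools in the submitters' processing notes, given with no role or order, are edgeR, deepTools, HTSeq (version 0.6.0) and STAR, and the build is mm10. The deposited table gave log2 fold changes and log2 CPM, a likelihood ratio score, and p-values with Benjamini-Hochberg adjusted values. Its 6 sample columns, in the authors' file, were constant multiples of each other within a group (largest relative spread 1.8e-14) and were read as fitted values, not counts. Left-out replicates and count tests could not be run. P-values measure only the spread between these libraries, which may be technical.

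Effective library sizes were solved from 718 rows with fitted values above 300, and dispersions (for ratios of at least 0.1, otherwise from rows of like abundance) from the deposited likelihood ratios. They gave implied standard errors and calls on a centred scale. The solving of dispersions and the standard error formula were checked on simulated data, the centred calls were not. Solving the dispersions from the ratios fixes the calls at the deposited scale, so that these check nothing. The deposited log2 fold change lies nearer 0 than the ratio of fitted levels where reads are few. Starts count from 0 in the table and from 1 here. Genes are from GENCODE M21 (same build), and promoters from RefSeq. Computation used Python 3.11.15 with pandas 2.3.3, scipy 1.17.1 and numpy 2.4.6.

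Members, lists and tests were chosen with earlier results of these data known. Rows were named by a rule: the 12 of the region with the smallest adjusted p, the 5 with the highest WT level, those at the limits of the block, any called higher, the called row of smallest adjusted p per listed gene, and the 3 clusters nearest in ratio. Rows named beyond it were chosen after their values were seen.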

Additional observations from a re-analysis of the deposited data

How the results depend on the processing

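For the direction of the block the outcome was fixed in advance, since all of its 46 rows had log2 fold changes of -1.003 or lower. The block kept its direction in every alternative run, which therefore tests nothing. Its log2 ratio of sums was -2.15 and its median log2 fold change -2.29 with the median ratio centred at 1, and the other alternatives run (rows wholly inside, filtered, on the plus strand, merged, without the most abundant row, limits moved by 10 kb) moved the log2 ratio by less than its implied standard error, to between -2.40 and -2.32. Of the 30 calls, 4 remained with 10 residual degrees of freedom, 0 with 4 (smallest adjusted p = 0.603), and 18 among rows with a mean fitted value of at least 10, where fewer rows are tested. Limits moved inward by 10 kb bring rows of the block into the flank before it, whose log2 ratio was then -1.16 and median -2.13. Without its more abundant row the flank after the block stood at -2.18. No row of that flank reached a mean fitted value of 10. On the centred scale 2 uncalled flank rows turned sign, MSTRG.86913 to 0.10 and MSTRG.86915 to 0.092. Lower calls in the lists fell with a narrower link: within 10 kb to 5 (PAQR), 3 (procollagen) and 0 (TRP), and for overlapping rows only to 0, 1 and 0. A narrower link also leaves fewer rows. How many it left is not given here, so these counts say nothing about the share called. No paired analysis was possible because the sample columns hold fitted values with no spread between replicates. Leaving out replicates and DESeq2 were not run for the same reason.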

Other observations

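Rows beyond the region were mostly below 0 as well, as were 20930 of all 34518 rows, of which 4.65% were called lower. In the 1 Mb before the region 19 of 19 rows had a log2 fold change below 0 in the authors' deposited table (median -1.56), and 4 were called lower and 0 higher. In the 1 Mb after it 28 of 37 rows lay below 0 (median -0.49), with 3 called lower and 0 higher. The most abundant called row before the region was MSTRG.86824 (94554169 to 94556260), which went from 1.36 to 0.462 CPM (authors' deposited table: adjusted p = 0.0152, 0.0537 with the median ratio centred at 1). A row listed antisense to the sodium/proton exchanger gene Slc9a9, MSTRG.86873, went from 0.136 to 0.0127 CPM (authors' deposited table: adjusted p = 0.00977). The most abundant called row after the region was MSTRG.87010, 40.4 kb from the start of Rnf7, a ubiquitin ligase subunit gene, at 5.57 CPM in WT against 2.36 CPM in FOG2_OE (authors' deposited table: log2 fold change -1.24, adjusted p = 0.00711). The 4 rows just before the region, MSTRG.86907, MSTRG.86908, MSTRG.86909 and MSTRG.86911, lay between -2.25 and -1.72 in log2 fold change by the authors' deposited table. None was called, but each had an unadjusted p under 0.05. They lie nearer in value to the block than to the flank between them and it. These rows were chosen after their values were seen.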
